A study of Canis lupus familiaris with 5 samples.

Results

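CL-1 and CLGL-90 are 2 of the 5 canine lymphoid tumour cell lines in this series, and they were compared with the other 3 lines, 17-71, GL-1 and CLL-1390. CL-1 is labelled as a T-cell line from a primitive alpha/beta T-cell leukaemia and CLGL-90 as a large granular lymphocyte (LGL) T-cell line from an LGL leukaemia. Among the other lines, 17-71 is labelled as a B-lymphoid malignancy, GL-1 as a B-cell leukaemia, and CLL-1390 as a primitive T-cell leukaemia, so the comparison does not follow the lineage label. All lines were grown in RPMI with fetal bovine serum without treatment, and each was measured on 1 Affymetrix canine array, which limits the precision. The 2 groups were chosen by measured values: CL-1 and CLGL-90 were put together with their expression known, and the members are the probe sets, and the genes they stand for, in which both lines lay above or below every other line. The values below therefore describe these 5 cultures, and no test was made of a contrast that the choice itself used. By this rule 1141 of 14164 measured genes were higher in CL-1 and CLGL-90 than in each of the other 3 lines (8.06%) and 1030 were lower (7.27%). Over probe sets the shares were 7.37% higher (2701 of 36661) and 7.68% lower (2814). Simulated rows with no shift between the groups separated them more often than this. The counts alone are therefore no sign of a programme that the 2 lines share.

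T cells recognise antigen through a receptor whose CD3 and zeta chains are phosphorylated by LCK and then bind ZAP70. SAP, encoded by SH2D1A, links SLAM family receptors to the kinase FYN. CD28 adds a costimulatory signal, while CTLA4 competes for the same ligands and restrains the cell. B cells and myeloid cells run a parallel relay in which LYN and SYK act on receptor chains and BTK acts on phospholipase C gamma 2. In T cells ZAP70 takes the place of SYK, and BTK is a kinase that mature T cells are known to lack.

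All values are log2 intensities of a gene's probe set of highest mean. The gap of a gene is the log2 distance between the nearest values of the 2 groups, positive where CL-1 and CLGL-90 were higher. The difference is the mean of CL-1 and CLGL-90 minus the mean of the other lines, and an SD spans lines, not repeats of a line. Values at or under the highest of 59 control probe sets for non-dog sequences (6.39 in CL-1, 6.76 in CLGL-90, 6.60 to 6.70 in the other lines) count as background here, and at that level a gap understates or distorts the true distance. A value of 8 or more counts as high, and both words refer to that 1 probe set unless another is named. Each array measured a whole culture, so fewer cells with a transcript and less transcript per cell cannot be told apart.

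CL-1 and CLGL-90 were not especially alike in their expression as a whole. Over 36661 probe sets of the arrays their Pearson correlation was 0.880, the eighth of the 10 pairs of lines, where GL-1 with CLL-1390 stood first at 0.921 and CL-1 with CLL-1390 last at 0.876. Every pair with CL-1 lay at 0.888 (with GL-1) or below, while CLGL-90 with the other 3 lines lay at 0.896 to 0.899. The points share their arrays, and no p is given. Most genes that separated the 2 groups did so by little. A gap of at least log2 1 was reached by 67 genes in the higher direction (0.473% of genes) and 61 in the lower (0.431%), and a gap of at least 2 by 27 and 19. At the edge of the rule, MRPL20, a mitochondrial ribosomal protein gene, counted as higher with 13.39 in CL-1 and 13.2802 in CLGL-90 against 13.28 in CLL-1390, and BHMT counted as lower with a margin of 0.00019. ADCY2 and ABO lay just outside, each with CLGL-90 and another line at the same value (7.55 and 7.44).

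**Figure D1:**
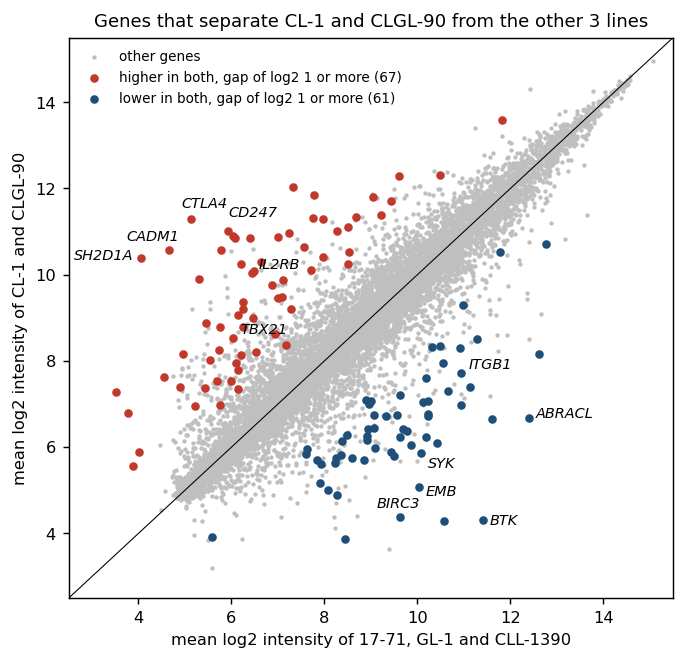
Mean log2 intensity of CL-1 and CLGL-90 (y axis) against the mean of 17-71, GL-1 and CLL-1390 (x axis), 1 point per gene for 14164 genes, with the line of equal values. The 67 genes higher in both lines by a gap of log2 1 or more lie above the line (red), with SH2D1A, CADM1 and CTLA4 farthest from it, and the 61 lower ones lie below it (blue), with BTK farthest.

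In 15 genes (0.106%) both CL-1 and CLGL-90 were high while all 3 other lines were at background, and in 9 (0.0635%) both were at background while the others were high. The 15 were CADM1, SH2D1A, CTLA4, NEFL, CD247, FTH1, SLC9B1, SPATS2L, SLC38A5, GALM, AS3MT, UFSP1, TBX21, YAP1 and SDR16C5. The 9 were BTK, EMB, SYK, DBN1, SORL1, STAP1, RAB39A, YPEL1 and DOK3. AS3MT, UFSP1, YAP1, SDR16C5, RAB39A and YPEL1 lie outside the rule for named genes and were named after their values were seen. Within the 67 higher genes, CL-1 and CLGL-90 were within log2 1 of each other in 47, and the line closest to them was 17-71 in 27, CLL-1390 in 25 and GL-1 in 15. Within the 61 lower genes the closest line was 17-71 in 30, CLL-1390 in 21 and GL-1 in 10. By these counts CLL-1390, the third T-labelled line, was not closest more often than the B-labelled 17-71. In 34 of the 67 higher genes, however, all 3 other lines were at background, where the order of the lines carries little meaning. Within the 15 genes above, the closest line was CLL-1390 in 11, 17-71 in 4 and GL-1 in 0. All 3 other lines were at background in each of the 15, so that order carries little meaning too. Within the 9 the closest line was CLL-1390 in 4, 17-71 in 3 and GL-1 in 2.

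T-cell receptor signalling was shared in single components. CD247, the zeta chain of the receptor complex, stood at 11.16 in CL-1 and 10.64 in CLGL-90, against 5.68 for 17-71, 5.85 for GL-1 and 6.58 for CLL-1390. SH2D1A, which encodes SAP, the adaptor of SLAM family receptors in T and natural killer cells, stood at 9.80 and 10.98 in CL-1 and CLGL-90, against 4.01, 3.94 and 4.24 in 17-71, GL-1 and CLL-1390. Both genes were high in both lines and at background in all others, with gaps of 4.07 and 5.56 and differences of 4.87 and 6.33. A second probe set of SH2D1A read 8.78 in CL-1 and 10.37 in CLGL-90 against 3.74 to 3.98 in the other lines, while CD247 had 1 probe set.

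Of 27 measured genes of the T-cell receptor complex and its proximal signalling (32 listed, 29 on the array), 3 were higher in both lines and 4 lower, which is 11.1% and 14.8% beside 8.06% and 7.27% of all genes, and the median difference was -0.09 beside -0.015 over all genes. RASGRP1, an activator of RAS downstream of the receptor, was higher by a gap of 0.72, with 12.77 in CL-1 and 8.28 in CLGL-90 against 7.15 to 7.56. CD8A, a coreceptor chain, passed by 0.11 alone. PTPN22, a phosphatase that dampens receptor signalling, was the clearest lower member: it lay at background in both, 5.06 in CL-1 and 6.18 in CLGL-90, against 8.14 for 17-71, 8.20 for GL-1 and 7.45 for CLL-1390. Among 9 SLAM family and adaptor genes SH2D1A was the member with a gap over 1. CD244, a SLAM family receptor that binds SAP, ran the other way with 6.97 and 6.84 in CL-1 and CLGL-90 against 7.73 to 9.38 in the other lines.

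Among the 26 gene lists, the costimulatory and inhibitory receptors held the most genes with a gap of log2 1 or more in the higher direction. These were 3 of 20, or 15% beside 0.473% of all genes, and they include the marker CTLA4. CTLA4 stood at 10.40 in CL-1 and 12.20 in CLGL-90, against 5.44 for 17-71, 5.02 for GL-1 and 4.91 for CLL-1390, and its second probe set read 8.17 and 8.86 in the 2 lines against 4.74 to 5.02. CD28 stood at 11.06 and 10.69 in CL-1 and CLGL-90, against 6.41 for 17-71, 8.31 for GL-1 and 6.32 for CLL-1390, so GL-1 held a high value below both. ICOS, a costimulatory receptor induced on activated T cells, stood at 7.505 and 7.29 in CL-1 and CLGL-90 against 4.99, 5.13 and 4.59 in 17-71, GL-1 and CLL-1390. ICOS was above background in both lines without reaching 8, and it was at background in the others.

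CD28, CTLA4 and ICOS follow one another in the gene order of the dog assembly UU_Cfam_GSD_1.0, used for order only. Their gaps were 2.38, 4.96 and 2.16, while the measured genes on either side, RAPH1 and PARD3B, had gaps of 0.20 and 0.04. Of 20 measured costimulatory and inhibitory receptor genes 4 were higher in both lines and 0 lower, beside 8.06% and 7.27% of all genes. The fourth, HAVCR2, separated the groups by 0.06 and turned round with another of its probe sets (a difference of -0.95 in place of 0.36). The list median was 0.09.

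TBX21, IL2RB, FOXO1 and CD70 were also higher by a gap of log2 1 or more. TBX21, which encodes T-bet, the factor that directs type 1 helper and cytotoxic programmes, stood at 8.59 in CL-1 and 8.46 in CLGL-90, against 5.79 for 17-71, 5.92 for GL-1 and 6.42 for CLL-1390. IL2RB, the chain that interleukin 2 and interleukin 15 receptors share, stood at 9.22 and 10.86 in CL-1 and CLGL-90 against 6.43, 5.89 and 7.02 in 17-71, GL-1 and CLL-1390. TBX21 was at background in all 3 other lines, and IL2RB in 17-71 and GL-1 by this probe set. Of the 4 probe sets of IL2RB, 3 separated the groups, and the remaining one lay above background in all lines, at 6.99997 to 7.41. In the regulatory and helper T-cell list 4 of 20 genes were higher (IL2RB, IFNG, CCR8 and CCR4, the last 3 by 0.27 or less) and 3 lower (TGFB1, GATA3 and IL10), 20% and 15% beside 8.06% and 7.27% of all genes.

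FOXO1, a transcription factor of lymphocyte homing and quiescence, stood at 10.56 in CL-1 and 9.64 in CLGL-90 against 7.65 to 7.82 in the other lines, and all 3 of its probe sets separated the groups. CD70, the ligand of CD27, stood at 12.13 and 11.56 in CL-1 and CLGL-90, against 9.91 for 17-71, 7.78 for GL-1 and 5.66 for CLL-1390. The other lines were thus spread over more than log2 4 in CD70 (SD 2.12), and 17-71 was high as well. Of the T-lineage transcription factors 2 of 21 were higher and 4 lower, 9.52% and 19.0% beside 8.06% and 7.27% of all genes. The higher ones were TBX21 and, by 0.49, IKZF3, a zinc finger factor related to Ikaros. IKZF3 was at background in every line but CL-1, where it stood at 7.23. The lower ones were led by NFATC2, a calcium-regulated factor, at 5.47 and 5.40 in CL-1 and CLGL-90 against 6.08 to 8.71. NFATC2 was above background in 17-71 alone, at 8.71. SATB1, a chromatin organiser of thymocytes, followed at 6.58 and 5.38 in CL-1 and CLGL-90 against 7.12 to 9.48. GATA3, a factor of T-cell development and of type 2 helper cells, was lower too, at 7.21 and 8.13 against 8.45 to 9.40.

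**Figure D2:**
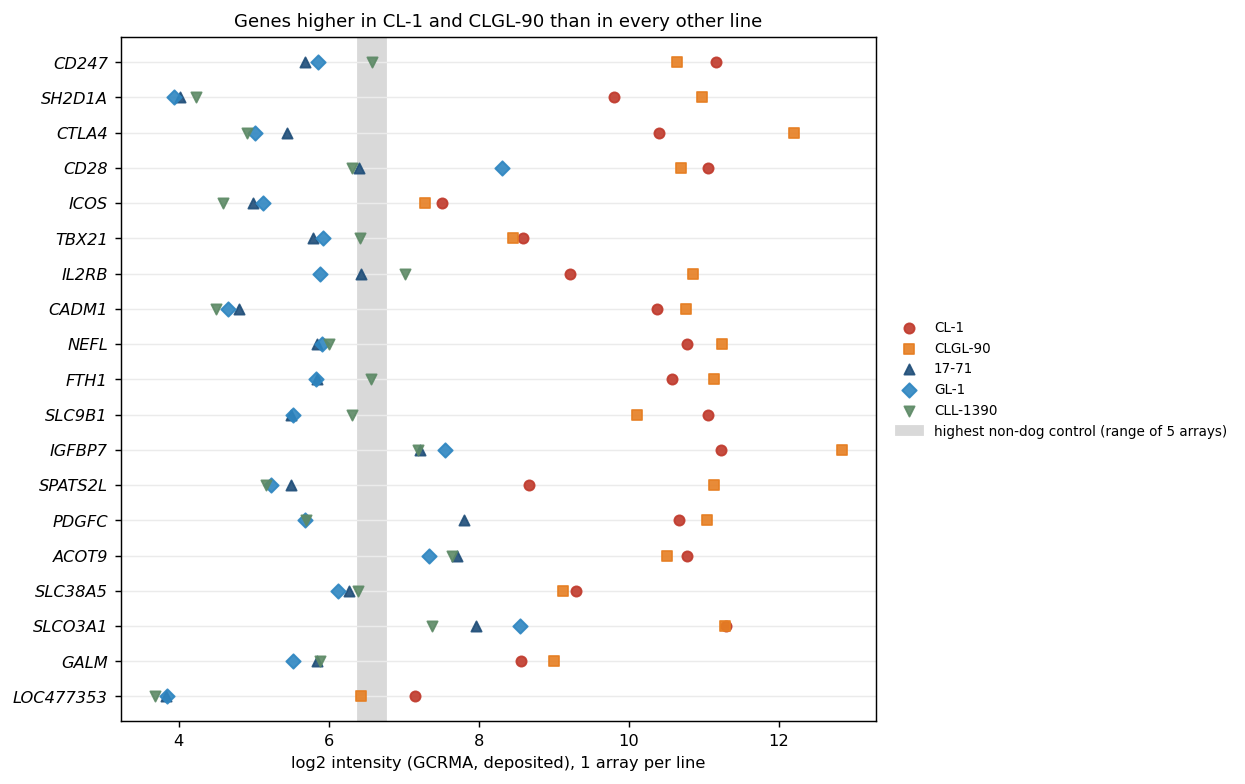
Log2 intensity (x axis) of 7 T-cell genes and of the further genes among the 15 largest gaps in the higher direction (rows), 1 point per line. In every row the points of CL-1 and CLGL-90 lie to the right of 17-71, GL-1 and CLL-1390, most of which lie at or left of the grey band, which spans the highest non-dog control of the 5 arrays (6.39 to 6.76).

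CADM1, an immunoglobulin superfamily molecule of cell contact, stood at 10.38 in CL-1 and 10.77 in CLGL-90, against 4.80 for 17-71, 4.66 for GL-1 and 4.50 for CLL-1390. Its gap was 5.58, and its most variable probe set read 11.30 and 11.66 in CL-1 and CLGL-90 against 3.62 to 4.003 in the others. Of its 5 probe sets, 3 separated the groups. The remaining 2 lay at 5.15 to 6.68 in all lines. Of 23 measured integrin and adhesion genes 3 were higher and 4 lower, 13.0% and 17.4% beside 8.06% and 7.27% of all genes. ICAM2, a ligand of the integrin LFA-1, was higher by 0.99 and ITGAL, the alpha chain of that integrin, by 0.36.

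Several shared genes are better known from other tissues. NEFL, the light neurofilament chain of neurons, stood at 10.78 in CL-1 and 11.24 in CLGL-90, against 5.84, 5.91 and 6.002 in 17-71, GL-1 and CLL-1390. IGFBP7, a secreted protein that binds insulin-like growth factors, stood at 11.23 and 12.84 in CL-1 and CLGL-90 against 7.22, 7.55 and 7.19, and both of its probe sets separated the groups. PDGFC, a platelet-derived growth factor, stood at 10.67 and 11.04 in CL-1 and CLGL-90 against 7.80, 5.69 and 5.69. NEFL was at background in every other line, PDGFC in GL-1 and CLL-1390, and IGFBP7 in none. In the fibroblast and mesenchymal list 2 of 17 genes were higher, COL5A1 by 0.04 and VIM by 0.01, and COL6A1 was lower, 11.8% and 5.88% beside 8.06% and 7.27% of all genes. In the endothelial and epithelial list 0 of 12 genes were higher. EPCAM was lower there by 0.01, at background in all lines, which is 8.33% beside 7.27% of all genes.

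The other genes among the 15 largest gaps in the higher direction belonged to none of the 26 lists. SLC9B1, a sodium/hydrogen exchanger family member, stood at 11.06 in CL-1 and 10.11 in CLGL-90 against 5.50, 5.52 and 6.32 in 17-71, GL-1 and CLL-1390. SLC38A5, an amino acid transporter, stood at 9.29 and 9.12 in CL-1 and CLGL-90 against 6.27, 6.13 and 6.39. Its second probe set, at 5.20 to 5.61 in all lines, did not separate the groups. SLCO3A1, an organic anion transporter, was nearly equal in CL-1 and CLGL-90 at 11.29 and 11.28, against 7.97, 8.55 and 7.38 in the other lines. ACOT9, a mitochondrial acyl-CoA thioesterase, stood at 10.77 and 10.51 against 7.71, 7.33 and 7.65, and its 3 probe sets all separated the groups. GALM, galactose mutarotase, stood at 8.56 and 8.998 against 5.53 to 5.88, although its second probe set did not separate them. SPATS2L differed more within the pair, with 8.67 in CL-1 and 11.13 in CLGL-90 against 5.16 to 5.50. Of its 3 probe sets, 1 did not separate the groups, at 5.00 to 5.30 in all lines. FTH1, the ferritin heavy chain, was represented by 1 probe set with 10.58 and 11.14 against 5.83 to 6.57. Ferritin heavy chain genes have many near-identical copies, so what that probe set measures is uncertain. LOC477353, an uncharacterised locus, completed the 15 with 7.15 and 6.44 against 3.68 to 3.84, CLGL-90 itself being at background.

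BTK, which acts on phospholipase C gamma 2, was lower in CL-1 and CLGL-90 than in every other line. It stood at 3.93 in CL-1 and 4.68 in CLGL-90, against 11.52 for 17-71, 11.46 for GL-1 and 11.23 for CLL-1390, a gap of -6.55 and a difference of -7.10. A second probe set read 4.69 in CL-1 and 5.34 in CLGL-90 against 10.39 to 11.24 in the other lines. BTK was thus at background in both lines by either probe set, and it was high in CLL-1390 in spite of the T-cell label of that line.

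SYK, the kinase that acts before BTK in B and myeloid cells, shared the pattern with 5.43 in CL-1 and 6.30 in CLGL-90, against 9.33 for 17-71, 10.97 for GL-1 and 9.91 for CLL-1390. Its second probe set read 4.62 and 4.37 in CL-1 and CLGL-90 against 7.30 to 9.65. LYN, a SRC family kinase that starts the relay, stood at 6.15 and 7.97 in CL-1 and CLGL-90 against 9.05, 11.001 and 10.66 in 17-71, GL-1 and CLL-1390. LYN was at background in CL-1 and above it in CLGL-90, so that its gap was 1.07 below 0. PLCG2, phospholipase C gamma 2, the substrate of BTK, was lower by a gap of 0.47, with 7.69 in CL-1 and 7.34 in CLGL-90 against 8.16 in CLL-1390 and 10.59 in 17-71, and 1 of its 2 probe sets separated the groups.

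The adaptors of the relay did not move as one. DOK3, an inhibitory adaptor of B-cell receptor signalling, stood at 5.93 in CL-1 and 6.34 in CLGL-90 against 8.90, 8.18 and 8.06 in 17-71, GL-1 and CLL-1390. STAP1, an adaptor that binds the kinase TEC and is not on the list of this relay, stood at 6.24 and 6.52 in CL-1 and CLGL-90 against 10.05, 9.23 and 10.04. Both genes were at background in CL-1 and CLGL-90 and high in every other line. BLNK, the linker that joins SYK to BTK, stood at 5.35 in CL-1 and 9.90 in CLGL-90 against 8.12, 5.35 and 5.68 in 17-71, GL-1 and CLL-1390. DAPP1, another adaptor of the list, stood at 11.80 and 9.47 in CL-1 and CLGL-90 against 11.11, 9.46 and 9.24, and neither gene separated the groups. DAPP1 was named after its values were seen. Of 21 measured B-cell receptor signalling genes (24 listed) 5 were lower in both lines and 0 higher, beside 7.27% and 8.06% of all genes, with a list median difference of -0.31 beside -0.015. The 5 were BTK, SYK, DOK3, LYN and PLCG2. In the B-lineage list 0 of 20 genes were lower and 2 were higher, 10.0% beside 8.06% of all genes, CXCR5, a follicular homing receptor, by 0.31 and MS4A1, which encodes CD20, by 0.01.

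**Figure D3:**
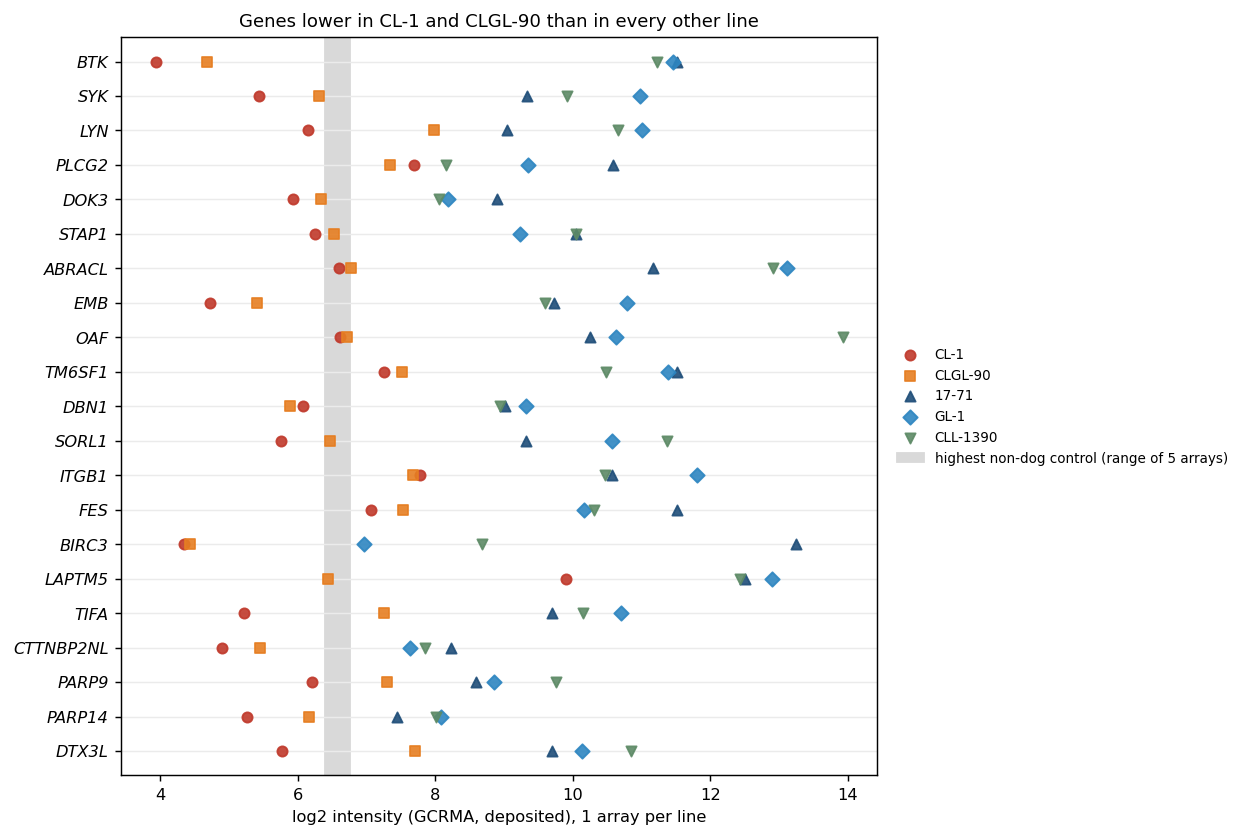
Log2 intensity (x axis) of 5 genes of B-cell receptor signalling and STAP1, of the further genes among the 15 largest gaps in the lower direction, and of PARP9, PARP14 and DTX3L (rows), 1 point per line. In every row CL-1 and CLGL-90 lie to the left of 17-71, GL-1 and CLL-1390. The grey band spans the highest non-dog control of the 5 arrays, and BTK lies far to its left in CL-1 and CLGL-90.

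ABRACL, a small cytoskeletal regulator, stood at 6.60 in CL-1 and 6.78 in CLGL-90 against 11.16, 13.12 and 12.92 in 17-71, GL-1 and CLL-1390, and its second probe set separated the groups as well. EMB, embigin, a partner of monocarboxylate transporters, stood at 4.72 and 5.41 in CL-1 and CLGL-90 against 9.72, 10.78 and 9.59. SORL1, a sorting receptor of the endosome, stood at 5.75 and 6.46 against 9.32, 10.57 and 11.36, and all 3 of its probe sets separated the groups. DBN1, the actin-binding protein drebrin, stood at 6.07 and 5.89 against 9.01, 9.31 and 8.94. EMB, SORL1 and DBN1 were at background in both CL-1 and CLGL-90, although 1 further probe set of SORL1 read 6.92 in CLGL-90, above background. ABRACL lay just above it in both.

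ITGB1, the beta chain that many integrins share, stood at 7.77 in CL-1 and 7.67 in CLGL-90 against 10.57, 11.80 and 10.47 in 17-71, GL-1 and CLL-1390. It was lower in both lines but above background, and its other probe set, at 5.97 to 7.23 in all lines, did not separate them. ITGAV, an alpha chain that pairs with it, was lower by a gap of 0.69. OAF stood at 6.61 and 6.72 in CL-1 and CLGL-90 against 10.25, 10.63 and 13.92, its level in CLL-1390 being far above the rest. TM6SF1 stood at 7.25 and 7.52 against 11.52, 11.38 and 10.48. LAPTM5, a lysosomal protein of blood cells that lowers antigen receptor levels, stood at 9.90 in CL-1 and 6.44 in CLGL-90 against 12.43 to 12.90. Another of its 3 probe sets read 9.51 and 10.41 in CL-1 and CLGL-90 against 10.72 to 11.02, so its low value in CLGL-90 depends on the probe set. CTTNBP2NL, a cortactin-associated protein, stood at 4.89 and 5.45 against 7.63 to 8.23. Its second probe set was at background in all lines, at 5.43 and 6.01 against 6.35 to 6.47.

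In the NF-kB and TNF family list 3 of 30 genes were higher (CD70, NFKBIZ by 0.52 and LTA by 0.14) and 3 lower (BIRC3, FAS and NFKBIE), 10.0% each way beside 8.06% and 7.27% of all genes. FES, a tyrosine kinase of myeloid cells, stood at 7.06 in CL-1 and 7.53 in CLGL-90 against 11.51, 10.16 and 10.31 in 17-71, GL-1 and CLL-1390, and its second probe set at 5.33 and 5.63 against 8.43 to 9.96. TIFA, an adaptor of TRAF6, stood at 5.22 and 7.26 in CL-1 and CLGL-90 against 9.69, 10.69 and 10.14. BIRC3, an inhibitor of apoptosis induced by NF-kB, stood at 4.35 and 4.42 in CL-1 and CLGL-90 against 13.25, 6.95 and 8.68. BIRC3 was at background in both lines, while its spread over the other lines was wide (SD 3.25), so its gap of -2.53 rests on GL-1. A second probe set of BIRC3 read 4.94 and 5.44 in CL-1 and CLGL-90 against 10.78 in 17-71. That probe set was at background in GL-1 and CLL-1390 too, at 6.35 and 6.59. FAS, a death receptor, was at background in CL-1 and CLGL-90, at 4.71 and 4.72, and in CLL-1390, at 5.20, against 9.50 in 17-71 and 7.57 in GL-1.

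PARP9 and DTX3L, which encode partners in a complex that modifies proteins by ADP-ribose and ubiquitin and is induced by interferon, are neighbours in the gene order of UU_Cfam_GSD_1.0. DTX3L stood at 5.76 in CL-1 and 7.70 in CLGL-90 against 9.69, 10.13 and 10.84 in 17-71, GL-1 and CLL-1390. PARP9 stood at 6.20 and 7.29 in CL-1 and CLGL-90 against 8.59, 8.86 and 9.75. PARP14, 2 genes along from DTX3L, stood at 5.27 and 6.16 against 7.44 to 8.08. These 3 genes lie outside the rule for named genes and were named after their values were seen. PARP9 with DTX3L was 1 of 3 adjacent pairs of protein-coding genes in which both members had a gap of log2 1 or more in the same direction. The other 2 pairs were CD28 with CTLA4 and CTLA4 with ICOS. In the interferon list 5 of 27 genes were lower, none by over 0.45 (IRF5), and 1 was higher, 18.5% and 3.70% beside 7.27% and 8.06% of all genes. DTX3L, PARP9 and PARP14 are not on that list.

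Among myeloid genes, 8 of 28 were lower in both lines and 0 higher, which is 28.6% lower beside 7.27% of all genes. CYBB, a subunit of the phagocyte oxidase, had the largest gap, with 6.24 in CL-1 and 6.04 in CLGL-90 against 11.09 for 17-71, 9.19 for GL-1 and 6.98 for CLL-1390. Another of its 3 probe sets did not separate the groups, with 5.63 in CL-1 and 5.62 in CLGL-90 against 5.56 in CLL-1390. The other 7 lower genes of the list separated the groups by 0.09 or less. The list's median level was 6.05 in CL-1 and 6.39 in CLGL-90, against 8.38 for 17-71, 8.24 for GL-1 and 6.44 for CLL-1390. The part of these genes in the low values of SYK, FES and LYN in CL-1 and CLGL-90 was not tested.

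Progenitor genes were lower in 6 of 17, 35.3% beside 7.27% of all genes, and higher in 0, with a list median difference of -0.94. HHEX, a homeobox factor of early blood cells, was at background in CL-1 and CLGL-90, at 5.94 and 5.69, against 7.57 for 17-71, 7.97 for GL-1 and 9.51 for CLL-1390. LMO2, a bridging factor of stem cell transcription, stood at 6.76 and 7.71 in CL-1 and CLGL-90 against 8.37, 11.60 and 12.87. FLT3 separated by 0.49, with 13.00 in GL-1, 8.67 in 17-71 and 7.98 in CLL-1390, and the other 3 genes separated by 0.25 or less. In the MHC class I list 4 of 13 were lower, 30.8% beside the same 7.27%, TAPBP, the peptide loading factor tapasin, by 0.25 and the others by 0.09 or less. In the chemokine receptor list 4 of 17 were higher, 23.5% beside 8.06% of all genes, CXCR5 by 0.31 and the others by 0.19 or less. CCR8 was among these, with 13.34 in CL-1 and 6.88 in CLGL-90 against 6.60 to 6.70. Of 16 ribosomal protein genes, 2 were lower by 0.03 or less, 12.5% beside 7.27%.

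Cytotoxic genes were high mainly in CLGL-90, and CL-1 shared few of them. IL2RB was the member of that list, 1 of 18 genes, that separated the groups, 5.56% beside 8.06% of all genes, although the list median difference was 1.87. CLGL-90 held 14 of the 18 at 8 or more and CL-1 held 3, against 4 for 17-71, 5 for GL-1 and 2 for CLL-1390. Over all 14164 genes each line held 6406 to 6561 at that level. Of the cell cycle and tumour suppressor genes 3 of 23 were higher, 13.0% beside 8.06%: FOXO1, CDKN1A, which encodes the cycle inhibitor p21, by 0.61, and MDM2, the regulator of p53, by 0.26. Of the cytokine receptor and JAK-STAT genes 4 of 36 were higher, IL2RB and IL10RB (by 0.69) ahead, and 5 lower, IL15RA and JAK1 ahead by 0.31 and 0.29, which is 11.1% and 13.9% beside 8.06% and 7.27% of all genes. In the apoptosis list 2 of 25 genes were lower, BIRC3 and BID, a BH3 protein at 10.38 and 10.51 in CL-1 and CLGL-90 against 11.26 to 11.50, and BAX, a pore-forming protein of mitochondria, was higher by 0.14. These shares, 8% and 4%, stand beside 7.27% and 8.06% of all genes.

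**Figure D4:**
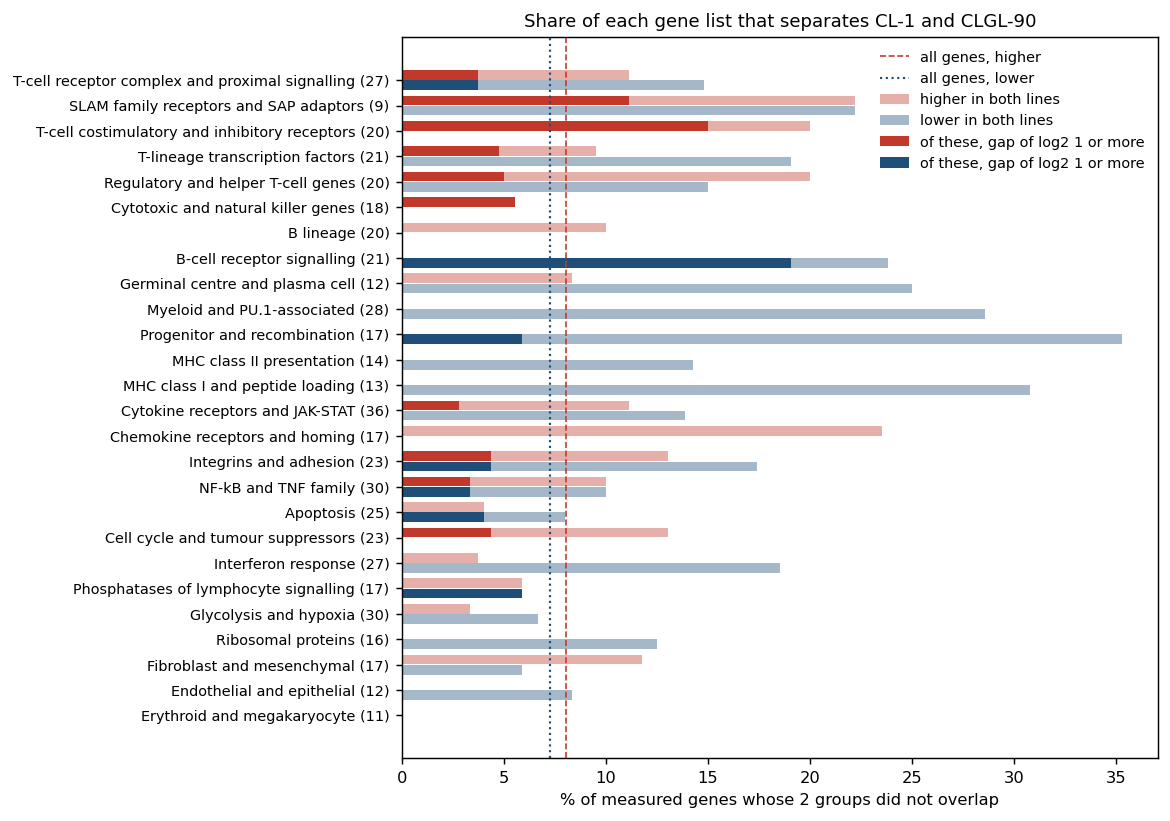
Percentage of the measured genes of 26 lists (number in brackets) in which CL-1 and CLGL-90 both lay above (red) or below (blue) the other 3 lines, with the part that had a gap of log2 1 or more in full colour. Dashed and dotted lines give the shares over all genes, 8.06% and 7.27%. The lists with the most genes at a gap of 1 or more are costimulatory receptors (3 of 20, higher) and B-cell receptor signalling (4 of 21, lower). At that gap the shares over all genes are 0.473% higher and 0.431% lower.

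The T-cell label itself was borne out unevenly. Of the 27 T-cell receptor genes, 8 were high in CL-1 and 17 in CLGL-90, against 11 for 17-71, 16 for GL-1 and 16 for CLL-1390. Over all 14164 genes, 6533 were high in CL-1 and 6412 in CLGL-90, against 6410 for 17-71, 6561 for GL-1 and 6406 for CLL-1390. The T-cell receptor, SLAM, costimulatory, T-lineage factor, B-lineage and B-cell receptor lists were searched for genes split between the 2 lines. In these lists 18 genes were high in CL-1 or CLGL-90 and at background in the other of the 2 without separating the groups. CLGL-90 was the high line in 15 of the 18 and CL-1 in 3. The cytotoxic and the regulatory and helper T-cell lists were not searched, and the share of all genes split in this way was not counted. CD3D and CD3G, chains that define the receptor complex, were at background in CL-1, at 5.44 and 5.34, and stood at 13.51 and 12.69 in CLGL-90. Both were also high in GL-1 and CLL-1390, CD3D at 9.78 and 10.89 and CD3G at 10.01 and 8.86. In 17-71 both were at background. CD3E, named after its values were seen, stood at 7.81 in CL-1 and 10.24 in CLGL-90 against 7.91 to 8.48. LCP2, the adaptor SLP-76, stood at 3.99 in CL-1 and 10.54 in CLGL-90, and the other lines held it at 10.08 to 10.70. CD2, CD7 and CD27 stood at 12.59, 10.31 and 11.83 in CLGL-90 and were at background in CL-1. A second probe set of CD27, however, read 6.84 in CL-1 against 9.75 in CLGL-90. CD2 was also high in 17-71, at 11.42, and CD7 in GL-1 and CLL-1390, at 8.92 and 9.25. FOXP3, the factor of regulatory T cells, stood at 9.49 in CLGL-90 and 5.32 in CL-1, beside CTLA4, which both lines shared. The 3 genes high in CL-1 were FYN, a kinase of the receptor relay, at 10.31 against 6.18 in CLGL-90, CD226, an activating receptor, at 9.54 against 6.27, and BCL11A, a factor of B-cell development, at 11.05 against 6.66. The other lines held FYN at 9.34 to 10.48 and BCL11A at 8.12 to 8.82, and had CD226 at background.

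**Figure D5:**
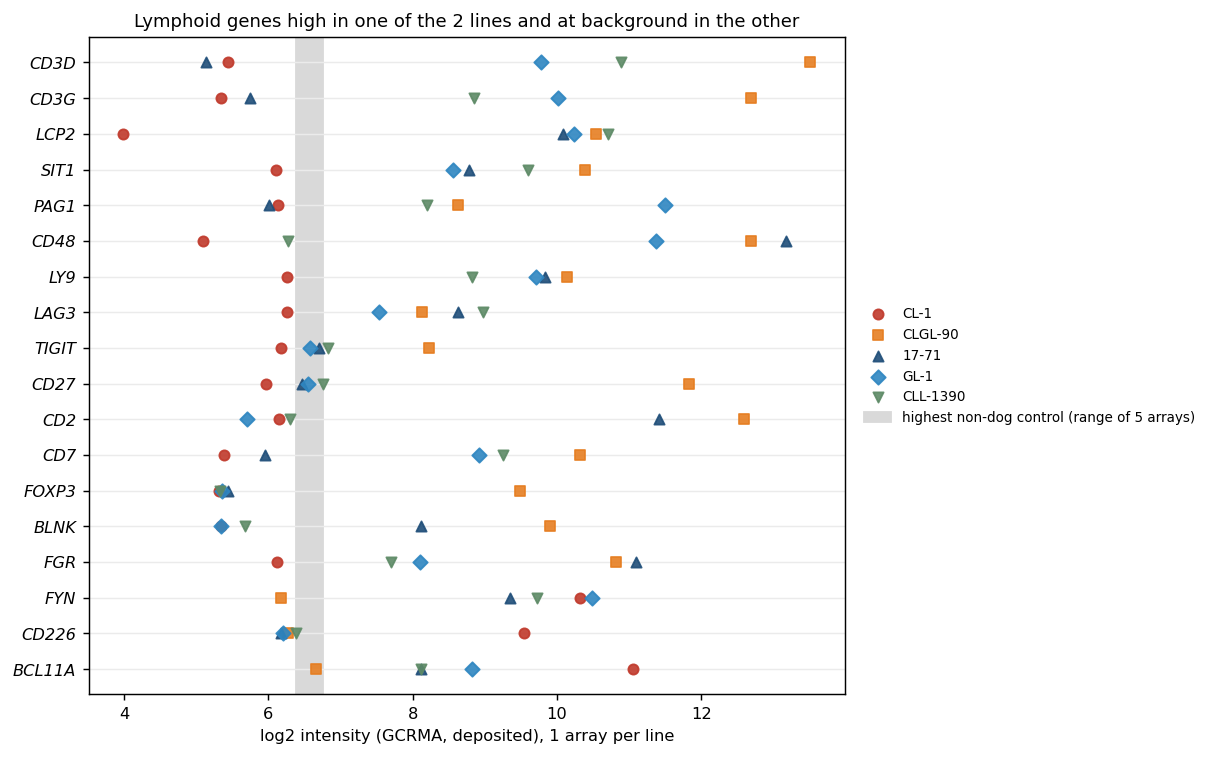
Log2 intensity (x axis) of 18 genes (rows) of the searched T-cell and B-cell lists, 1 point per line. Each was at 8 or more in 1 of CL-1 and CLGL-90, at background in the other, and did not separate the groups. CLGL-90 (square) is the high one of the 2 in the upper 15 rows and CL-1 (circle) in the lower 3, and the other lines fall on either side.

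Other probe sets of the same genes gave a second reading from the same RNA. Of the 67 higher genes with a gap of log2 1 or more, 32 had further probe sets, 54 in all, of which 43 lay higher in both lines, 31 of them by log2 1 or more, and 11 overlapped. Of the 61 lower genes, 38 had 57 further probe sets, of which 44 lay lower in both lines and 13 overlapped. In both directions, 0 lay the opposite way. These probe sets belong to the contrast that chose the genes, and so the counts are a description.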

How the data were processed

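Total RNA (RNA integrity number above 9, per the labels' protocols) of 5 cell lines was biotin-labelled and hybridised to Affymetrix canine arrays, 1 per line. The authors deposited log2 intensity values, summarised by GCRMA per the submitters' processing notes, whose version is not stated there. Lymph node specimens that the protocols mention were not analysed here. Array medians lay between 6.87 and 7.00. The file held 43035 probe sets, from which 111 control probe sets were dropped. Of the remaining 42924, 29254 carried a single gene symbol, 439 carried several and named no gene, and 13231 had no annotation. Symbols were updated through gene IDs found in the RefSeq table of UU_Cfam_GSD_1.0 (94.6%). Probe sets at log2 5 or more on at least 2 arrays were kept (36661). Each of 14164 genes was then read from the probe set with the highest average.

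No test was made, because the groups were chosen with these values known and no line has a repeat array. Python 3.11.15 with pandas 2.3.3 counted genes whose groups do not overlap, and the count was tested on simulated data. Members, the 26 gene lists and the naming rule were chosen with earlier results of these data known. Named were 4 markers (CD247, SH2D1A, CTLA4, BTK), the 15 largest gaps per direction, up to 4 genes per list and direction, and lymphoid genes split between CL-1 and CLGL-90. Some of those with small gaps are given by range only. Alternatives were other filters, normalizations, floors, gaps, thresholds, probe set choices and leaving out each line.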

Additional observations from a re-analysis of the deposited data

How the results depend on the processing

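The counts of genes higher and lower in CL-1 and CLGL-90 (1141 and 1030) stayed within 1.5 times under no filter, a filter at log2 7, renewed quantile normalization, centred arrays, a floor at log2 4 and other choices of probe set. Over probe sets the filter at log2 7 left 1758 higher, fewer being measured. The counts depend on the gap required. At log2 0.5 they were 482 and 473 probe sets and 195 and 153 genes, and at log2 1 they were 198 and 161 probe sets and 67 and 61 genes. Genes high in both lines and at background in the others (15) numbered 37 with high set at log2 7, 9 at log2 9, and 5 with background at log2 6. Genes at background in both and high in the others (9) numbered 23, 5 and 2 under the same settings, and 14 with background at log2 7. Leaving out each line in turn leaves fewer values to overlap, and the ranges were 3924 to 11700 and 4364 to 14915 probe sets higher and lower, 1668 to 4530 and 1589 to 5532 genes, and 18 to 87 and 10 to 39 genes high or at background in both. The last 2 counts were 50 and 31 without CL-1, 87 and 39 without CLGL-90, 22 and 29 without 17-71, 19 and 10 without GL-1, and 18 and 31 without CLL-1390. The correlation of CL-1 with CLGL-90 was 0.876 by Spearman, 0.910 without a filter and 0.053 over the 1000 probe sets of highest variance, ranking 8, 8 and 6 of 10 pairs. HAVCR2 was the named gene whose sign turned with another probe set (-0.95 for the most variable, -0.29 for the median). No paired analysis was possible because each line is 1 array and no number links lines across the groups. The differences of all 131 named genes moved by less than the spread between lines under quantile normalization, centring and the floor, and those of 10 and 14 moved by more with the most variable and the median probe set. Values at background limit the size of most large gaps.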

Other observations

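Some genes separated the groups by a probe set other than the one of highest mean, and these were named after their values were seen. The MHC class I gene DLA88 had a probe set at 13.55 in CL-1 and 13.78 in CLGL-90, against 3.75 for 17-71, 4.05 for GL-1 and 3.94 for CLL-1390, a gap of 9.50. This gene is not counted in the MHC class I list. Its other probe set was high in all 5 lines, at 12.75 and 13.57 in CL-1 and CLGL-90 against 13.28 to 13.997. MRPS30, a mitochondrial ribosomal protein gene, showed the same kind of disagreement. Its lowest probe set read 10.81 and 10.21 in CL-1 and CLGL-90 against 4.15 to 4.88, while its other probe sets lay at 10.61 to 12.90 in all lines. EPSTI1, an interferon-induced gene, read 3.64 and 3.61 in CL-1 and CLGL-90 against 8.92 to 9.57 by 1 probe set, and 5.16 and 4.81 against 6.55 to 6.84 by another. The third probe set lay at 7.34 to 7.91 in all lines. AMPH, amphiphysin, read 8.15 and 9.43 in CL-1 and CLGL-90 against 4.27 to 4.41 by 1 probe set, and separated by 0.47 by another. The sequence each probe set targets was not analysed here, and the cause of these disagreements was not tested.

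Probe sets with no single gene symbol also separated CL-1 and CLGL-90. Of 11023 such probe sets kept, 58 were higher in both lines by a gap of log2 1 or more and 57 were lower. The largest gap among them was 7.38, with 12.25 in CL-1 and 12.45 in CLGL-90 against 4.58, 4.62 and 4.87 in 17-71, GL-1 and CLL-1390. The next was 6.37, with 10.64 and 9.85 against 3.08, 3.33 and 3.48. In the lower direction the largest was 4.55, with 6.18 and 7.26 in CL-1 and CLGL-90 against 11.82, 11.90 and 12.64.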
